A study of Homo sapiens with 6 samples.

Results

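The USP deubiquitinases are proteases that cut ubiquitin from proteins, and their genes were followed here after knockdown of the ubiquitin ligase RNF20 in MDA-MB-231 cells, a line of invasive human breast carcinoma, by sequencing of bulk RNA. Members were all protein-coding genes whose symbol is USP followed by digits only, leaving out USP18 and USP22, which gave 47 of the 62703 genes in the count tables. Symbols with a letter after the digits, such as USP9X, fall outside that rule. The study set 3 libraries from cells with hairpin RNA against RNF20 (shRNF20) against 3 libraries from cells with a control hairpin (shControl), and both groups are the same line. Neither the number of hairpins, nor whether cells were pooled or cloned, nor whether replicates were separate cultures is given by the labels. The p-values therefore measure only the spread between these libraries, which may be technical.

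RNF20, with its partner RNF40, attaches a single ubiquitin to histone H2B in transcribed genes, and USP enzymes take such marks off again. Ubiquitin is likewise removed by USP enzymes from histone H2A, which Polycomb and DNA damage ligases modify. Most other members act outside chromatin, on proteins bound for the proteasome, on receptors in endosomes, on mitochondria or on signalling proteins, and most carry a catalytic cysteine in a shared fold. A set of 14 members was marked from general knowledge as acting on histone H2A or H2B (USP3, USP7, USP11, USP12, USP15, USP16, USP21, USP36, USP42, USP44, USP46, USP48, USP49 and USP51). USP10, which acts on the variant histone H2A.Z, was kept apart from them.

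Counts assigned to genes totalled 21988826 to 28265573 in shRNF20 libraries and 23786533 to 29685306 in shControl libraries. RNF20 itself stood at 12.5 ± 1.52 CPM (read counts scaled to 1000000 per library; SD, n = 3) in shRNF20 and 58.1 ± 0.34 CPM in shControl. The shRNF20 libraries differed little among themselves: chi-square per degree of freedom between library pairs was 2.06 to 6.80, against 31.9 to 51.5 between shControl pairs, and the biological coefficient of variation was 0.04 in shRNF20 and 0.20 in shControl. Mitochondrially encoded RNA took 4.91% to 6.22% of gene counts in shRNF20 and 0.93% to 1.38% in shControl, and reads outside annotated exons took 5.05% to 5.49% of all reads in shRNF20 and 2.39% to 2.58% in shControl. Of the line's markers, VIM, CD44 and AXL summed to 2124 to 2135 CPM in shRNF20 and 2667 to 2996 CPM in shControl, and the 4 low markers (ESR1, PGR, CDH1 and EPCAM) to 29.6 CPM in each shRNF20 library and 27.0 to 39.5 CPM in shControl. Within that sum CDH1 was lower (6.99 CPM in shRNF20 and 18.2 CPM in shControl on average), and EPCAM (21.1 CPM in shRNF20 and 13.5 CPM in shControl) and ESR1 (1.44 CPM in shRNF20 and 0.10 CPM in shControl) were higher. The 4 leukocyte markers stayed under 1 CPM in sum in each of the 6 libraries, and 2 or 3 of them were at 0 in each. The 9 fibroblast and endothelial markers summed to 58.1 to 60.6 CPM in shRNF20 and 21.3 to 30.3 CPM in shControl, with COL1A1, COL3A1, LUM and PDGFRB called higher and the endothelial PECAM1 called lower (0.66 CPM in shRNF20 and 5.12 CPM in shControl on average). A fit without mitochondrially encoded genes called the same 25 USP members as the fit used below. Beyond that, the part that these differences between the groups play in the USP results was not tested.

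The family as a whole moved in both directions. Of the 47 members 42 passed the filter on low counts, and 25 of those differed between the groups by edgeR's quasi-likelihood test at an adjusted p under 0.05, 12 higher and 13 lower in shRNF20. That is 59.5% of the members tested, close to the 58.4% of all 15797 genes tested that passed, with 28.7% of all genes higher and 29.8% lower. Members were thus called about as often as genes in general. In bulk RNA, fewer cells with a transcript and less of it per cell cannot be told apart. Groups did not overlap for 26 of the 42 members, against 66.3% of all genes. Changes of 2-fold or more that passed were limited to USP50 and USP35, against 22.2% of all genes. The median log2 fold change was 0.05 for the members and -0.01 for all genes. The median size of the change, whatever its sign, was 0.35 for the members and 0.51 for all genes. The members are protein-coding by rule, and among the 12910 protein-coding genes tested that size was 0.47 and the median log2 fold change -0.04. Of those genes 60.4% were called, and 2369 passed with a change of 2-fold or more. Summed over the 47 members, USP reads took 0.256% ± 0.001 of gene counts in shRNF20 and 0.258% ± 0.006 in shControl (SD, n = 3). Those shares gave an exact two-sided permutation p of 0.8. Gene counts here include mitochondrially encoded RNA, at 4.91% to 6.22% in shRNF20 and 0.93% to 1.38% in shControl, which lowers the shRNF20 share more. The USP share of the other gene counts was not tested.

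**Figure D1:**
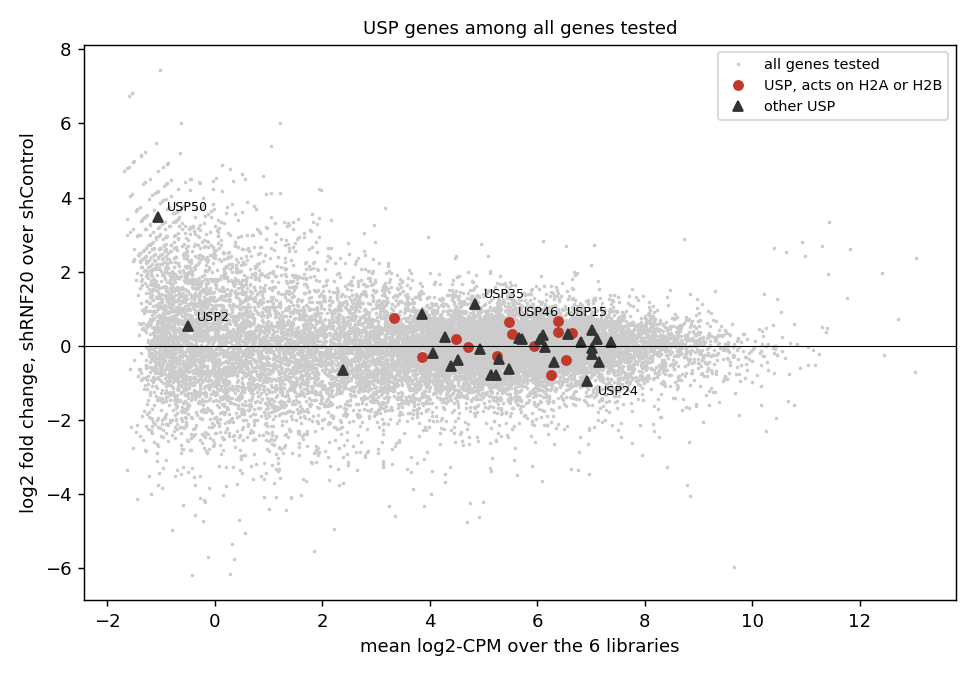
Each point is a gene tested, at its mean log2-CPM over the 6 libraries (x axis) and its log2 fold change of shRNF20 over shControl (y axis), with all genes in grey, USP genes that act on histone H2A or H2B as red circles and other USP genes as black triangles. USP genes lie on both sides of 0 inside the cloud of all genes, from USP24 at -0.94 to USP35 at 1.13 among the well covered ones, with the thinly covered USP50 at 3.48.

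How the libraries are counted bears on the calls. With the 3 shRNF20 libraries summed to 1 sample, 8 of 43 members tested passed, which is 18.6% against 19.3% of all genes. These were USP35, USP15, USP46 and USP50 (higher) and USP24, USP28, USP11 and USP20 (lower). The other 17 called members did not pass there. When a change beyond 1.2-fold was asked for, 15 of the 42 members and 44.5% of all genes passed. On GRCh38, USP35 (ENSG00000118369) lies at chr11:78188812-78214711, USP15 (ENSG00000135655) at chr12:62260338-62417431, USP46 (ENSG00000109189) at chr4:52590972-52659335 and USP50 (ENSG00000170236) at chr15:50500562-50546708. USP24 (ENSG00000162402) lies at chr1:55066359-55215113, USP28 (ENSG00000048028) at chr11:113797874-113875570, USP11 (ENSG00000102226) at chrX:47232690-47248328 and USP20 (ENSG00000136878) at chr9:129834698-129881838. Counts cover the exons of each gene.

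Among the members that act on histones, 13 of 14 could be tested: 5 were higher, 3 were lower and 5 did not pass. The 8 called are 61.5%, near the 58.4% of all genes called. Their median log2 fold change of 0.19 (all genes -0.01) was 0.34 without shControl replicate 1 and 0.06 without shControl replicate 3. The higher ones were USP15, USP46, USP12, USP36 and USP49. USP15, which takes ubiquitin off histone H2B and off signalling and splicing proteins, stood at 105.7, 97.2 and 103.8 CPM in shRNF20 libraries and 61.4, 63.0 and 68.6 CPM in shControl libraries. Every shRNF20 library was above every shControl library (log2 fold change 0.67, SE 0.08, edgeR adjusted p = 0.000142). USP46, which acts on H2A and H2B together with the WD repeat protein WDR48, reached 55.3, 49.8 and 57.0 CPM in shRNF20 against 35.8, 34.0 and 33.4 CPM in shControl. Its groups did not overlap either (log2 fold change 0.65, SE 0.08, edgeR adjusted p = 0.000298). USP12, its close relative with the same partner, had 94.7, 92.6 and 97.2 CPM in shRNF20 and 73.3, 67.3 and 80.0 CPM in shControl. The lowest shRNF20 library lay above the highest shControl library, by a smaller step than for USP46 (0.37, SE 0.08, edgeR adjusted p = 0.00447).

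USP36, a nucleolar enzyme that also stabilises MYC, measured 111.6, 112.3 and 114.0 CPM in shRNF20 libraries, against 93.3, 84.6 and 87.3 CPM in shControl libraries. The shRNF20 values were all higher and close together (0.35, SE 0.07, edgeR adjusted p = 0.00239). USP49, an H2B deubiquitinase tied to splicing, was the scarcest of the 5 at 13.5, 12.3 and 11.6 CPM in shRNF20 and 9.18, 7.46 and 5.71 CPM in shControl. The groups stood apart, with a wide spread in shControl (0.74, SE 0.18, edgeR adjusted p = 0.00753). Its exons overlap genes on the other strand, and 78.4% of the reads that the strand columns give it were kept in the counts without strand. With the strand columns its log2 fold change was 0.70. Here and below, the strand columns give a read over exons on both strands to each gene. Shares kept and fold changes from those columns thus include reads that may belong to the overlapping gene.

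The histone members that fell were USP11, USP7 and USP3. USP11, which acts on ubiquitin at DNA breaks as well as on histones, dropped to 56.1, 57.1 and 55.8 CPM in shRNF20, against 106.6, 91.9 and 90.7 CPM in shControl. No shRNF20 library came near the lowest shControl library (log2 fold change -0.78, SE 0.08, edgeR adjusted p = 0.000108). USP7, best known for removing ubiquitin from MDM2 and p53, gave 81.5, 82.5 and 79.3 CPM in shRNF20 and 117.2, 97.5 and 99.4 CPM in shControl. These groups were apart too (-0.37, SE 0.09, edgeR adjusted p = 0.00591). USP3, an H2A and H2B deubiquitinase of the checkpoint response, was at 12.9, 12.4 and 13.8 CPM in shRNF20 and 16.3, 15.0 and 16.7 CPM in shControl. Its groups did not overlap, but the call was narrow (-0.30, SE 0.11, edgeR adjusted p = 0.0432): it did not pass without any 1 library other than shControl replicate 2, where the log2 fold changes were -0.27 to -0.35. Only 41.5% of the strand-assigned reads of USP3 were kept, since USP3-AS1 overlaps it, and the strand columns gave -0.22 with an edgeR adjusted p of 0.061.

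The remaining histone members had overlapping groups. USP16, which clears H2A ubiquitin at mitosis, stood at 49.3, 53.5 and 51.6 CPM in shRNF20 and at 54.2, 33.7 and 35.9 CPM in shControl (log2 fold change 0.31, 95% interval -0.07 to 0.70). USP42, an H2B deubiquitinase, gave 24.0, 23.5 and 24.6 CPM in shRNF20 and 25.9, 21.2 and 15.8 CPM in shControl (0.19, 95% interval -0.18 to 0.57). USP21, an H2A deubiquitinase, had 35.8, 36.5 and 30.8 CPM in shRNF20 against 32.4, 49.03 and 43.4 CPM in shControl (-0.27, 95% interval -0.62 to 0.07). Among the shControl libraries, replicate 1 was the highest in USP16 and USP42 and the lowest in USP21. USP44, an H2B deubiquitinase that also acts in the mitotic checkpoint, was also lowest in shControl replicate 1, at 23.9, 26.4 and 27.4 CPM in shRNF20 and 18.4, 31.0 and 30.4 CPM in shControl (-0.04, 95% interval -0.47 to 0.39). USP48, which acts on H2A, had 62.6, 61.3 and 59.3 CPM in shRNF20 and 67.7, 52.4 and 63.4 CPM in shControl (-0.003, 95% interval -0.23 to 0.23). Its shRNF20 values sat inside the shControl range. Without shControl replicate 1, USP16 (0.54), USP42 (0.35), USP21 (-0.45) and USP44 (-0.27) passed, which made 7 histone members higher and 4 lower, with USP3 lost. In that fit 69.0% of all USP members tested and 59.5% of all genes tested passed. The library left out was at an extreme of shControl in these same 4 genes.

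USP51, which acts on H2A at DNA breaks, was too scarce to test, with 11, 4 and 3 reads in shRNF20 libraries and 1, 1 and 2 in shControl libraries. USP10, the H2A.Z enzyme and a stress granule partner of G3BP1, was higher at 148.6, 149.2 and 150.3 CPM in shRNF20 and 114.7, 116.8 and 103.1 CPM in shControl. Its groups did not overlap (0.42, SE 0.07, edgeR adjusted p = 0.00122).

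**Figure D2:**
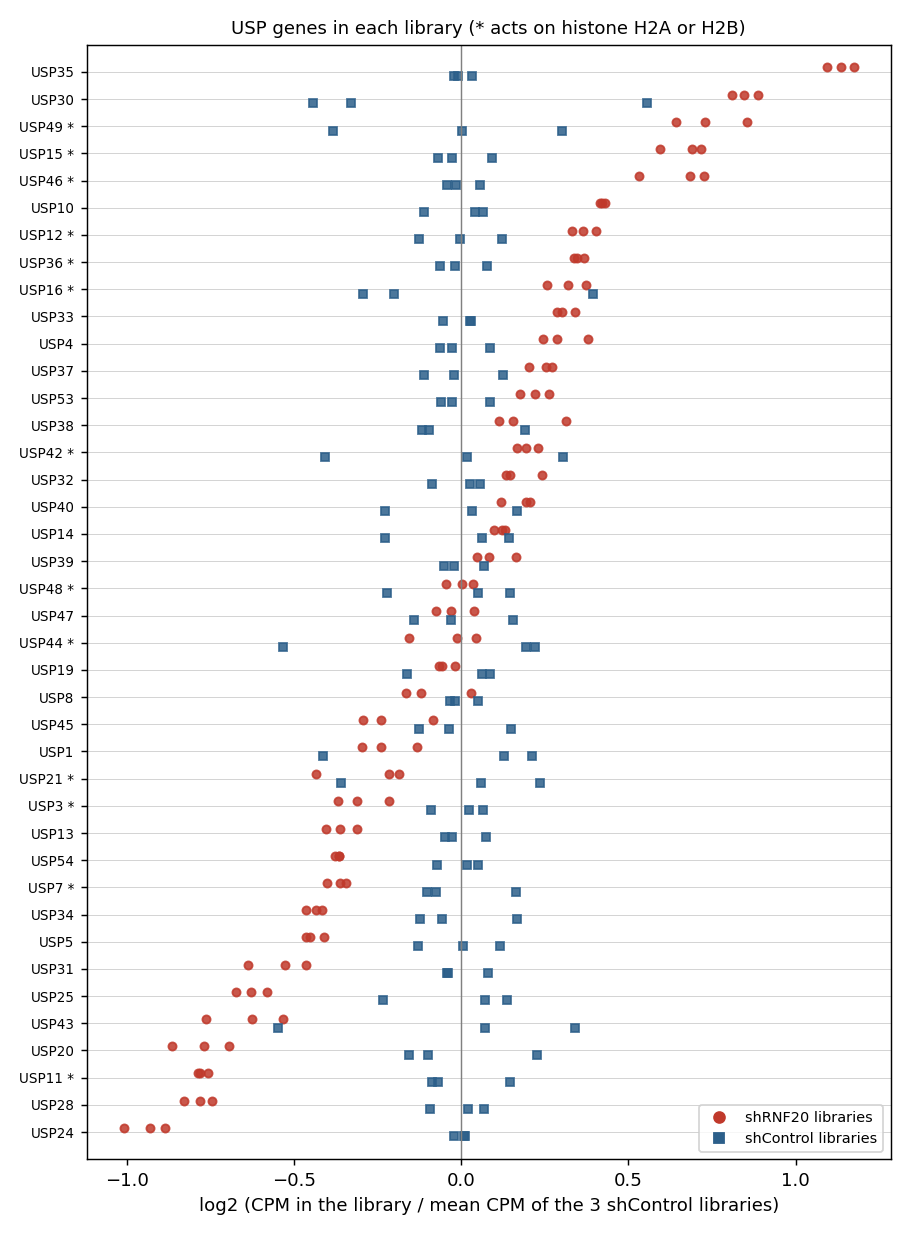
Each row is a USP gene and each point a library (shRNF20 as red circles, shControl as blue squares), on the x axis as the log2 ratio of its CPM to the mean CPM of the 3 shControl libraries; genes run from the largest rise at the top to the largest fall at the bottom, and USP50 and USP2 are left out for their low counts. The shRNF20 points lie close together, while shControl points spread more, most widely in USP30, USP16, USP44, USP42 and USP43.

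Outside chromatin, the enzymes of free ubiquitin chains and the proteasome did not share a direction. USP5, which takes apart unanchored ubiquitin chains, fell to 123.8, 119.3 and 120.3 CPM in shRNF20, against 150.6, 165.2 and 178.3 CPM in shControl, with no overlap (-0.44, SE 0.08, edgeR adjusted p = 0.00148). Its relative USP13 fell too (34.0 ± 1.10 CPM in shRNF20 and 43.7 ± 2.0 CPM in shControl; -0.36, edgeR adjusted p = 0.00491). USP14, which trims chains on the proteasome, was at 172.7 ± 2.03 CPM in shRNF20 and 159.3 ± 20.8 CPM in shControl and did not pass (0.12, 95% interval -0.11 to 0.34).

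Among members not marked for histones, USP24 and USP28 fell most, and 3 enzymes of DNA repair did not pass. USP24, a very large enzyme with p53 and the DNA damage sensor DDB2 among its substrates, had 79.5, 83.9 and 86.6 CPM in shRNF20 and 157.7, 161.0 and 161.3 CPM in shControl. It fell most of all members, with the shControl libraries nearly equal (log2 fold change -0.94, SE 0.07, edgeR adjusted p = 1.88e-05). USP28, which binds 53BP1 and stabilises MYC, was next at 26.7, 26.0 and 25.2 CPM in shRNF20 against 46.9, 41.9 and 45.4 CPM in shControl. Again no libraries overlapped (-0.79, SE 0.09, edgeR adjusted p = 0.000117). Another 3 repair enzymes did not pass: USP1, which acts on FANCD2 and PCNA (-0.22, 95% interval -0.56 to 0.12), USP45, which acts on ERCC1 (-0.20, -0.47 to 0.07), and USP47, which acts on DNA polymerase beta (-0.02, -0.23 to 0.18).

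Enzymes of endosomes, the endoplasmic reticulum, mitochondria and autophagy were split. USP20, which opposes the von Hippel-Lindau ligase and recycles receptors, stood at 26.1, 29.4 and 28.0 CPM in shRNF20 and at 42.7, 55.8 and 44.4 CPM in shControl. All shRNF20 libraries were lower (-0.77, SE 0.12, edgeR adjusted p = 0.00068; 77.5% of its reads were kept, and the strand columns gave -0.53). USP25, related to USP28, fell as well, at 34.9, 33.8 and 36.1 CPM in shRNF20 and 45.8, 59.3 and 56.6 CPM in shControl, with no overlap (-0.63, SE 0.11, edgeR adjusted p = 0.0013). USP33, which shares targets with USP20, rose to 103.3, 104.5 and 107.4 CPM in shRNF20 against 81.5, 86.5 and 86.3 CPM in shControl (0.31, SE 0.07, edgeR adjusted p = 0.00362). USP30, the mitochondrial enzyme that opposes parkin, had 18.5, 18.1 and 19.0 CPM in shRNF20 and 8.19, 15.1 and 7.58 CPM in shControl. The groups were apart, with shControl replicate 2 well above the other shControl libraries (0.85, SE 0.24, edgeR adjusted p = 0.0153); without that library the log2 fold change was 1.21, and without shRNF20 replicate 3 it was 0.82 and did not pass (edgeR adjusted p = 0.0557). USP8, which sorts the EGF receptor (-0.08, 95% interval -0.29 to 0.12; 68.7% of reads kept), USP19, anchored in the endoplasmic reticulum (-0.05, -0.23 to 0.14), USP32, of the late endosome (0.17, 0.01 to 0.34; edgeR adjusted p = 0.0638), and the scarce USP2 (0.53, -0.43 to 1.5; 74.4% of reads kept) did not pass.

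Members tied to signalling moved both ways. USP34, which acts on axin in the Wnt pathway, gave 68.9, 66.7 and 68.1 CPM in shRNF20 and 103.2, 84.4 and 88.4 CPM in shControl, with no overlap (-0.44, SE 0.09, edgeR adjusted p = 0.00287). The gene AHSA2P overlaps it, 78.0% of its reads were kept, and the strand columns gave -0.26. USP31, an NF-kB regulator, was at 16.1, 18.2 and 17.4 CPM in shRNF20 and 26.4, 24.3 and 24.4 CPM in shControl. Its groups were apart as well (-0.54, SE 0.10, edgeR adjusted p = 0.00179). USP4, a relative of USP15 that acts on the TGF-beta receptor, rose by 0.30 on the log2 scale (75.8 ± 3.66 CPM in shRNF20 and 61.4 ± 3.35 CPM in shControl, edgeR adjusted p = 0.00858), though not without shRNF20 replicate 2 (0.25, edgeR adjusted p = 0.0636). USP38, of interferon signalling, did not pass (0.19, 95% interval -0.05 to 0.43).

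The largest rise with good coverage was that of USP35, a relative of USP38. It stood at 39.3, 40.4 and 38.2 CPM in shRNF20 and 17.6, 17.8 and 18.3 CPM in shControl. Both groups were tight and far apart (log2 fold change 1.13, SE 0.08, edgeR adjusted p = 2.28e-05). USP35 passed in each of the 17 alternative analyses listed in the methods, as did USP15, USP46, USP11, USP20, USP24 and USP28. USP37, which acts on cyclin A (0.24, 95% interval 0.01 to 0.48; edgeR adjusted p = 0.073), and USP40 (0.17, -0.06 to 0.41) did not pass. VIL1, on the other strand, overlaps 32.8% of the exon bases of USP37, and 62.7% of the reads that the strand columns give USP37 were kept. With those columns, which give reads over both genes to each, USP37 passed (0.32, edgeR adjusted p = 0.0139). The part of VIL1 in those reads was not tested. USP43 was low and called lower (4.01 ± 0.32 CPM in shRNF20 and 6.24 ± 1.83 CPM in shControl; -0.64, edgeR adjusted p = 0.0449), but its groups overlapped and it did not pass without any 1 library other than shControl replicate 2 (log2 fold changes of -0.45 to -0.70 without the other 5).

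Members whose catalytic site is lost or divergent also differed among themselves. USP39, a splicing factor of the tri-snRNP with no catalytic activity, was at 116.2 ± 4.83 CPM in shRNF20 and 108.6 ± 4.75 CPM in shControl and did not pass (0.10, 95% interval -0.06 to 0.26). USP53, a tight junction protein long held to be inactive, was called higher (54.6 ± 1.59 CPM in shRNF20 and 46.8 ± 2.53 CPM in shControl; 0.22, edgeR adjusted p = 0.0359), and lost that call without any 1 library other than shControl replicate 1 (0.17 to 0.23). Its relative USP54 was called lower (19.9 ± 0.09 CPM in shRNF20 and 25.8 ± 1.12 CPM in shControl; -0.37, edgeR adjusted p = 0.00767); 56.8% of its reads were kept, and the strand columns gave -0.27. USP50 had 18, 25 and 14 reads in shRNF20 libraries and 2, 2 and 1 in shControl libraries (log2 fold change 3.48, SE 0.55, edgeR adjusted p = 0.000861). USP50 overlaps USP8 on the other strand, and only 2.80% of the reads that the strand columns give it were kept. With the strand columns the log2 fold change was 0.10 and did not pass (edgeR adjusted p = 0.418). Those columns give reads over both genes to USP8 as well, so that value cannot check the change of USP50. The level of USP50 is therefore uncertain.

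Members known from germ cells or from few species were at or near 0. USP26, USP29 and USP41 had 0 reads in all 6 libraries, where 3 counts, the limit that a count of 0 allows in 1 library, are 0.102 to 0.136 CPM. USP41 is a near copy of USP18, and reads that map to several places are not in the counts. USP6, a hominoid gene fused from parts of USP32 and a TBC1D3 gene, had 14, 8 and 8 reads in shRNF20 and 2, 2 and 1 in shControl, under the filter for testing. Such limits cover counting error only. The scarce members USP6, USP50 and USP51 all had more reads in shRNF20, where reads outside annotated exons also took a larger share (5.33% ± 0.24 in shRNF20 and 2.49% ± 0.10 in shControl); the part of such reads in these counts was not tested.

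Set per length of exon, the family spanned a wide range. On the scale of CPM per kilobase of merged exons, 13 members were at 10 or more in each group, 26 lay between 1 and 10 in each group, and 5 were detected below 1. USP5 led in both groups, at 32.4 ± 0.63 CPM per kilobase in shRNF20 and 44.1 ± 3.71 in shControl. In shRNF20 it was followed by USP39 (29.4), USP10 (29.4), USP14 (28.8) and USP1 (28.1), and in shControl by USP1 (32.8), USP39 (27.5), USP14 (26.6), USP19 (23.0) and USP10 (21.9). USP5 stood above the next member in every library of its group, whereas the values of USP39 and USP10 in shRNF20, and each neighbouring pair between USP1 and USP10 in shControl, overlapped. Over the 44 members detected, the values of 17 of 43 neighbouring pairs in shRNF20 and 31 of 43 in shControl overlapped, so most of the fine order in shControl is not resolved. By level per length USP11 was number 12 in shRNF20 and 7 in shControl, USP24 was 19 in shRNF20 and 10 in shControl, and USP35 was 17 in shRNF20 and 29 in shControl. Merged exons hold the exons of all annotated transcripts, so a gene whose used transcripts are much shorter than its merged exons is understated on this scale. Which transcripts were used was not analysed here.

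**Figure D3:**
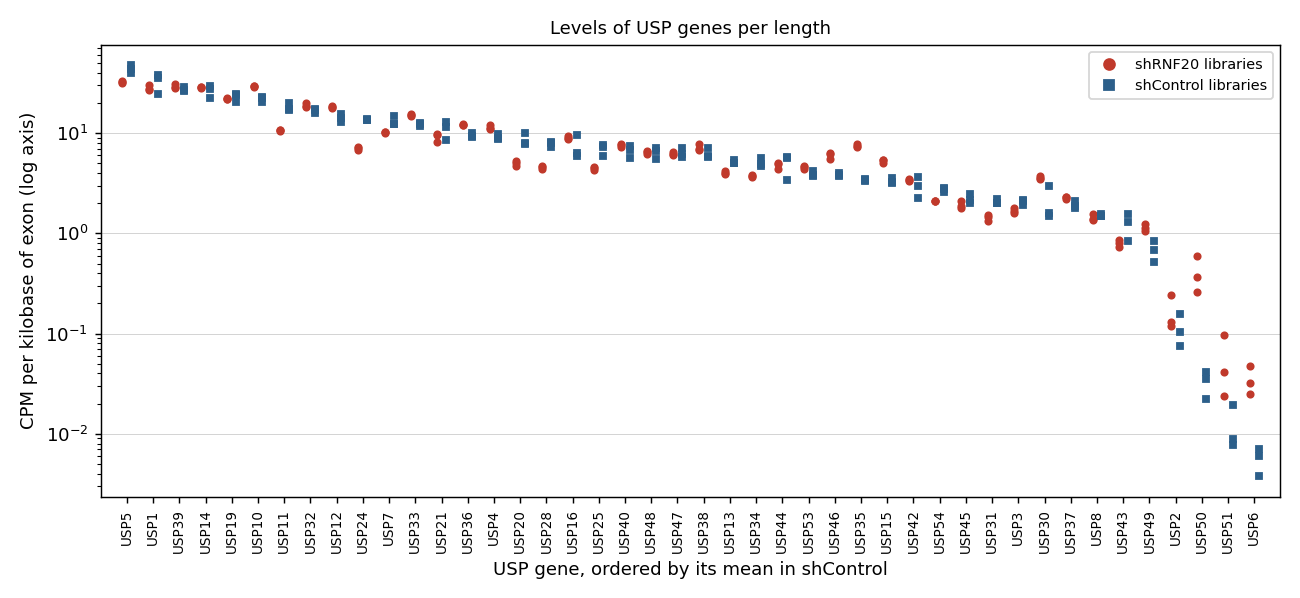
Levels of the 44 detected USP genes in CPM per kilobase of exon (log axis), ordered by the shControl mean, with each shRNF20 library as a red circle left of each shControl library as a blue square. USP5 is highest at 32.4 in shRNF20 and 44.1 in shControl, and USP2, USP50, USP51 and USP6 have means below 1 in both groups.

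Close relatives did not always move together. Relatives were paired from general knowledge after the values had been seen, which gave 15 pairs with both genes tested. In 5 pairs both genes passed in the same direction, in 4 both passed in opposite directions, and in 6 at most 1 passed. The pairs that shared a direction were USP12 and USP46, USP4 and USP15 (higher), and USP5 and USP13, USP25 and USP28, and USP31 and USP43 (lower). The pairs that parted were USP11 with each of USP4 and USP15, USP20 with USP33, and USP53 with USP54. Within the trio of USP4, USP11 and USP15, the log2 ratio of USP11 to USP15 reads was -0.92, -0.77 and -0.89 in shRNF20 and 0.80, 0.54 and 0.40 in shControl. USP11 gave fewer reads than USP15 in each shRNF20 library and more in each shControl library, a difference in the log2 ratio of -1.44 (exact two-sided permutation p = 0.1, the smallest that 3 against 3 can give). For USP20 over USP33 the log2 ratio was -1.98, -1.83 and -1.94 in shRNF20 and -0.93, -0.63 and -0.96 in shControl. That ratio was lower by 1.08 in shRNF20 with no overlap (exact p = 0.1). For USP12 over USP46, where both rose, it was 0.81 ± 0.07 in shRNF20 and 1.09 ± 0.15 in shControl, again apart (exact p = 0.1), while for USP5 over USP13 (1.83 ± 0.06 in shRNF20 and 1.91 ± 0.09 in shControl) and USP25 over USP28 (0.43 ± 0.08 in shRNF20 and 0.26 ± 0.27 in shControl) the groups overlapped (exact p = 0.3 and 0.4). Ratios of 9 of the 15 pairs were apart, and p-values over the 15 pairs cannot pass after adjustment with 3 libraries a group. Over all genes tested, 28.7% were called higher and 29.8% lower, and groups did not overlap for 66.3%. How often other pairs of genes share a direction, part or have ratios apart was not counted. The counts of pairs therefore cannot be read as particular to relatives.

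**Figure D4:**
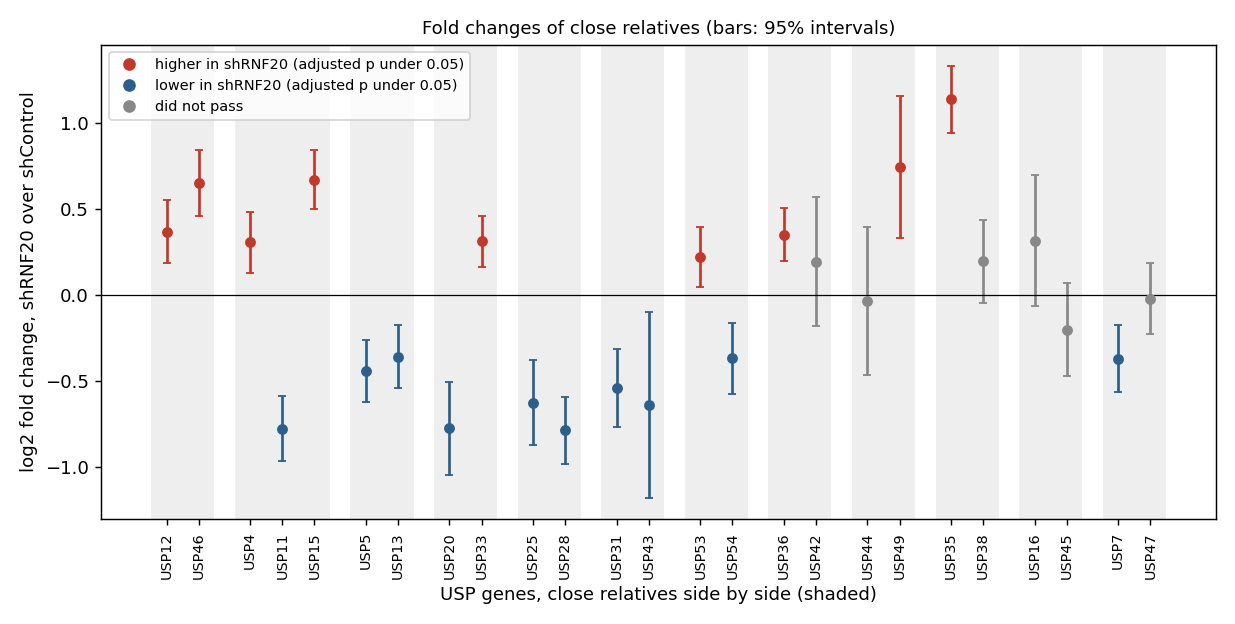
Log2 fold changes of shRNF20 over shControl (y axis) with 95% intervals for close relatives, each group of relatives shaded (USP8 with USP50 and USP6 with USP32 are left out for low counts); red genes are higher, blue genes lower and grey genes did not pass. USP11 (-0.78) stands opposite its relatives USP4 (0.30) and USP15 (0.67), and USP20 (-0.77) opposite USP33 (0.31), while USP25 (-0.63) and USP28 (-0.79) fell together.

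The upstream sequence of the parted relatives USP20 and USP33, of USP35 (the largest rise with good coverage) and of USP28 (the largest fall with an entry in the table) is shown for what these differently moving genes hold just before their starts in RefSeq. The USP20 window lies inside, and the USP35 window partly inside, the spans given above for these genes, which start further upstream. Each is the 250 bases before the start annotated by RefSeq on GRCh38.p14, 5′ to 3′ on the gene's strand, with matches on either strand in capitals to the GC box (GGGCGG), the ETS motif (CCGGAAG) or the E-box (CACGTG).
USP20 (chr9:129835208-129835457, plus strand): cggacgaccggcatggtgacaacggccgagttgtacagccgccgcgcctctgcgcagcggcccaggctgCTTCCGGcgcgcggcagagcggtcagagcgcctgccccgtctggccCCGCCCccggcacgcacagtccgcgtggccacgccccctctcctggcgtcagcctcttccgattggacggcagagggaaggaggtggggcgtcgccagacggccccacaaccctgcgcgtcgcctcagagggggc
USP33 (chr1:77759853-77760102, minus strand): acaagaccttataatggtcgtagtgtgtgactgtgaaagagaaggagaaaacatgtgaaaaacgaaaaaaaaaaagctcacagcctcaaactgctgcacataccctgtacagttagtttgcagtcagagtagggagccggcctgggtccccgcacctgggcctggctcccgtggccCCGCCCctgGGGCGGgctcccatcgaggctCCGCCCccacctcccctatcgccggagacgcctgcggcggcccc
USP35 (chr11:78188669-78188918, plus strand): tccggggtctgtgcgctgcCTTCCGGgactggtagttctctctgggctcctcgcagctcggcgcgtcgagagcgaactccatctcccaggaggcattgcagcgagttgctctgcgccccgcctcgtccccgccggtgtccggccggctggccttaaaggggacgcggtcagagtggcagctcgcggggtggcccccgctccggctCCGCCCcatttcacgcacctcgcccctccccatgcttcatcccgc
USP28 (chr11:113875573-113875822, minus strand): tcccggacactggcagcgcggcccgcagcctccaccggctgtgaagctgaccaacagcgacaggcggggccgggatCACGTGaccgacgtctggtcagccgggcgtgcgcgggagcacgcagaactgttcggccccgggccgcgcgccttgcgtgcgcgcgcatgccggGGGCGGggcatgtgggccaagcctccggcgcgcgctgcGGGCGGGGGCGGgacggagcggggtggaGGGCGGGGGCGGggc
USP20 holds 1 GC box and 1 ETS match, USP33 holds 3 GC boxes, USP35 holds 1 GC box and 1 ETS match, and USP28 holds 5 GC boxes, some adjoining, and 1 E-box. Each of these 4 windows thus holds a GC box, whichever way its gene moved. Windows were found for 37 of the 47 members (51 windows, since some genes have several starts), with a median GC content of 68.8% against 62.0% for 22199 windows of protein-coding genes. A GC box was present in 68.6% of member windows, 53.7% of protein-coding windows and 42.6% of all 35116 windows, and the ETS motif in 21.6% of member windows, 10.7% of protein-coding windows and 8.52% of all. Among members that rose the GC box share was 68.8% and among those that fell 60.0%, over 16 and 15 windows, and the ETS motif was in 3 windows of each. TATAAA was present in 3.92% of member windows and 9.0% of protein-coding windows, and the E-box in 5.88% of member windows and 7.37% of protein-coding windows. The palindromic NRF1 motif and the CRE (TGACGTCA) were in 0 member windows, against 1.28% and 2.01% of protein-coding windows. A match is a description of letters only.

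Gene length and level went with the fold change only loosely. Across the 42 members tested the rank correlation (Spearman) of the log2 fold change with the span of the gene was -0.11, against -0.19 across 15366 genes, and with the mean log2-CPM it was -0.11, against -0.05. Genes share these libraries and are not independent replicates. The median span was 66651 bases for members that rose, 87865 for those that fell and 56247 for those that did not pass.

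Other genes of the USP fold and of the ubiquitin system were also divided. Of 5 genes with a USP fold under another symbol, USPL1 (0.86, edgeR adjusted p = 0.000193) was higher, USP9X (-0.58, edgeR adjusted p = 0.0158) and USP27X lower, and 2 did not pass. Among 35 deubiquitinases of the UCH, OTU, MJD, JAMM and MINDY families 30 were tested, with 11 higher and 11 lower and a median of -0.14, so that 73.3% were called against 58.4% of all genes. The largest changes there exceeded those of any well covered USP gene: STAMBP, an endosomal enzyme, stood at 19.4 ± 1.06 CPM in shRNF20 and 82.2 ± 4.02 CPM in shControl (-2.08, edgeR adjusted p = 3.71e-06), and YOD1, which acts with the segregase VCP, at 169.5 ± 3.89 CPM in shRNF20 and 43.1 ± 4.15 CPM in shControl (1.98, edgeR adjusted p = 3.93e-06). Of 10 partners of USP enzymes 3 were higher and 3 lower (60.0% called, against the same 58.4%), with a median of 0.08. SART3, which brings USP4 and USP15 to the spliceosome, was higher along with both (123 ± 2.92 CPM in shRNF20 and 73.8 ± 4.64 CPM in shControl; 0.73, edgeR adjusted p = 7.57e-05), as was ENY2, a subunit of the SAGA deubiquitinase module (0.48, edgeR adjusted p = 0.00491). The lower partners were STAM2 (-0.30, edgeR adjusted p = 0.0113), G3BP1 (-0.28, edgeR adjusted p = 0.0219) and GMPS (-0.26, edgeR adjusted p = 0.023). G3BP1 thus fell while USP10, its partner, rose. WDR48, the partner of USP1, USP12 and USP46, did not pass (-0.25, edgeR adjusted p = 0.0795). Of 17 other genes of histone ubiquitin ligases 9 were higher and 2 lower (64.7% called, against 58.4% of all genes, of which 28.7% were higher and 29.8% lower), with a median of 0.25. Among the higher ones were the Polycomb subunit PCGF3 (0.98, edgeR adjusted p = 1.92e-05) and WAC, an adaptor of RNF20 and RNF40 (0.64, edgeR adjusted p = 6.60e-05). The lower ones were BRCA1 (-1.14, edgeR adjusted p = 0.000388) and RNF8 (-0.81, edgeR adjusted p = 0.00365). The change of BRCA1 was the largest of these genes and the only one called at 2-fold or more.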

How the data were processed

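RNA from 6 libraries of MDA-MB-231 was sequenced. Tools named are FastQC 0.12.1 and STAR 2.7.11a, with the build hg38, per the submitters' processing notes. The annotation release is not given in the sources used here. Raw read counts per gene, without strand and for each strand, were deposited for 62703 Ensembl genes. Counts without strand were used, since the first strand column held 50.1% to 50.2% of strand-assigned reads. They leave out reads over exons of more than 1 gene; the share kept of what the strand columns give is printed for the 9 members with the lowest shares. Each strand column assigns such reads by mapped strand, and the columns were added up here. A read over exons of genes on opposite strands is then counted for both genes. The sum thus cannot tell overlapping genes apart, and shares kept and fold changes from it include reads of the overlapping gene. Lines naming no gene held 20.9% to 24.1% of reads and stayed out of library sizes and tests.

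Symbols came from a table of identifiers (62639 matched). Gene types, positions and exon lengths came from GENCODE 29 on GRCh38, which may not be the authors' release. RefSeq lists no gene under the symbol USP41. The filter on low values was filterByExpr of edgeR 4.0.16 (R 4.3.3) with a minimum count of 10. TMM scaling and edgeR's robust quasi-likelihood F-test followed for the 15797 genes left, with Benjamini-Hochberg adjustment at 0.05. SEs are the log2 fold change divided by the root of F. CPM values use TMM library sizes. The planned comparison of catalytic sites in proteins was not run. Alternatives, 17 in all, were DESeq2 1.42.0, voom of limma 3.58.1, scaling by RLE or by the upper quartile, no filter, a stricter filter (3 libraries at a CPM of 1 or more), a replicate block, both strand columns added up, a test against 1.2-fold, no mitochondrially encoded genes, the shRNF20 libraries summed, and each library left out in turn. Values are given in every library for the histone members and for the 8 largest rises and 8 largest falls among called members whose groups do not overlap; for each other list the 2 genes with the smallest p are named, and other genes were named after their values were seen. Members and lists were chosen with earlier results of these data known. The code was tested on simulated data.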

Additional observations from a re-analysis of the deposited data

How the results depend on the processing

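The directions of the 25 called USP genes held in each alternative in which they were tested. Counts over all genes were within 1.5 times the main counts except with the shRNF20 libraries summed to 1 sample, which left 1753 genes higher and 1619 lower. With that sum 4 members were called higher and 4 lower (histone members 2 and 1), and against 1.2-fold 7 higher and 8 lower (histone members 3 and 1). Besides the losses given in the report, USP43 did not pass with upper quartile scaling, limma-voom or the strand columns, USP3 with upper quartile scaling, and USP3 and USP53 without a filter. USP32 and USP37 passed with upper quartile scaling and with the strand columns, USP32 with the stricter CPM filter, and USP1, USP6, USP16 and USP21 without a filter. Without any filter 27 of 44 members passed (61.4%), against 31.4% of all genes. The genes tested then grew from 15797 to 32933, but the members only from 42 to 44. These shares therefore do not compare like sets of genes. Across the 6 analyses that leave out 1 library, 10 to 16 members were called higher and 11 to 14 lower, and for the histone members 5 to 7 and 2 to 4. In all, 50% to 69.0% of members were called there, against 46.1% to 59.9% of all genes, and the members' median was 0.02 to 0.08. RNF20 stayed lower throughout, at -2.33 to -2.15 over all alternatives.

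The signs that turned belong to genes that did not pass, at values near 0. USP48 was at 0.0331 with upper quartile scaling, 0.00295 with limma-voom, 0.014 with the stricter CPM filter, 0.0045 with the replicate block, 0.0242 with the strand columns and 0.0197 with summed libraries, and at -0.126 to 0.0549 with 1 library left out. USP47 was at 0.0123 with upper quartile scaling, 0.0374 with the strand columns and 0.000576 with summed libraries, and at -0.0949 to 0.0408 with 1 library left out. USP44 was at 0.0174 with limma-voom and at -0.267 to 0.0657 with 1 library left out, and USP14 at -0.00855 to 0.171. The cause was not tested.

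Replicate numbers did not pair the libraries: correlations of deviations between same-numbered libraries were -0.02, 0.03 and 0.03. With the replicate block 23 of 42 members passed (11 higher and 12 lower), USP3 and USP53 being lost; over all genes 4418 were higher and 4518 lower. Depth limits USP2, USP6, USP50 and USP51, each with at most 31 reads in a library.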
